A study of Mus musculus with 40 samples.

Results

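Fatty acid uptake and binding were represented by 9 genes, chosen by function from textbook knowledge: the transporter gene *Cd36*, the fatty acid transport protein genes *Slc27a1*, *Slc27a2* and *Slc27a4*, the binding protein genes *Fabp3*, *Fabp4* and *Fabp5*, and the acyl-CoA synthetase genes *Acsl1* and *Acsl5*. They are 9 of the 21951 protein-coding genes of the GENCODE M21 basic annotation of GRCm38. Every peak of 4 histone marks over each gene body and 20 kb on each side was taken as belonging to that gene's window. The tissue was brown adipose tissue (iBAT) of wild type C57BL/6N mice aged 20 weeks, and the assay was ChIP-seq, in which DNA on a modified histone is captured with an antibody and sequenced. Mice 1 and 2 were kept warm on a normal chow diet (warm NCD), mice 4 and 5 spent 24 h at 4 °C on the same diet (cold NCD), mice 7 and 8 were kept warm after 12 weeks of high-fat diet started at 8 weeks of age (warm HFD), and mice 10 and 11 received both treatments (cold HFD). No group carried an engineered allele, and the sex of the mice is not stated in the labels. The study's methods speak of tissue of a pair of mice per sequencing experiment, so a list named here by 1 mouse could hold a pool.

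Brown adipocytes burn fatty acids to make heat, and they draw them both from their own lipid droplets and from the blood. CD36 binds long-chain fatty acids at the cell surface, the SLC27 proteins (FATPs) move them across the membrane and can join them to coenzyme A, FABPs carry them through the cytosol, and ACSL enzymes activate them to acyl-CoA for burning or storage. H3K4me3 marks start sites of genes in an active or poised state, H3K27ac marks active promoters and enhancers, H3K4me1 marks enhancers, and H3K27me3 marks genes silenced by Polycomb. In a bulk tissue, a mark in few cells and a weak mark in many cells cannot be told apart.

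The lists differed in length, and the sequencing depth behind them is not in the lists. H3K4me3 lists held 13517 to 24104 peaks and H3K27ac lists 3224 to 40604, with mouse 7 the shortest and mouse 11 the longest for both. H3K4me1 lists held 12 peaks in mouse 7, 18 in mouse 10 and 592 in mouse 1, against 7774 to 27568 in the other mice, so the absence of H3K4me1 in mice 1, 7 and 10 carries no information. Values are therefore given as the rank of a peak in the list of its own mouse, with rank 1 for the highest fold enrichment over background. A rank cannot exceed the length of its list, which holds H3K27ac ranks of mouse 7 at or under 3224. Of the 7 brown adipocyte markers 6 to 7 had H3K4me3 at a start site in each mouse, of the 5 endothelial markers 3 to 5, of the 5 macrophage markers 0 to 2, of the 5 hepatocyte markers 0, and of the 4 preadipocyte and fibroblast markers 0 to 3. Of the 5 skeletal muscle markers, 2 (*Acta1* and *Pygm*) had H3K4me3 in each NCD mouse and 0 in each HFD mouse. *Cd36*, *Fabp4* and *Fabp5* are also known from endothelial cells, and the part of other cell types in the marks at the 9 genes was not tested.

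Among H3K27ac regions with summits away from start sites and found in all 8 mice, those with the best median rank lay at *Cd36* and *Fabp4*. A region of *Slc27a2* is the one whose results by diet are given below. Only the summit had to be away, and the regions of *Fabp4* and *Slc27a2* run over the start sites of these genes. For each of these 3 regions, 201 bases are shown around the called summit that most mice shared within 100 bp (RefSeq genome GRCm38.p6, plus strand). The *Cd36* sequence is chr5:17877091-17877291, in an intron, and all 8 mice had their summit within 100 bp of its centre. The *Fabp4* sequence is chr3:10213489-10213689, upstream of the gene, and mice 1, 7 and 11 had their strongest distal summit there. The *Slc27a2* sequence is chr2:126555922-126556122, in an intron, and mice 1, 5, 8 and 11 had theirs there. In the other mice the strongest summits of the last 2 regions lay elsewhere in the region. No capitals occur in these 3 sequences, because none holds a motif searched for.
Cd36 distal: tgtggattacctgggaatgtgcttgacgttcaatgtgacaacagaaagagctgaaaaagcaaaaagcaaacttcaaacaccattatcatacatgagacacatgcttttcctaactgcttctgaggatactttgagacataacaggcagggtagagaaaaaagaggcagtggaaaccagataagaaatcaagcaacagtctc
Fabp4 distal: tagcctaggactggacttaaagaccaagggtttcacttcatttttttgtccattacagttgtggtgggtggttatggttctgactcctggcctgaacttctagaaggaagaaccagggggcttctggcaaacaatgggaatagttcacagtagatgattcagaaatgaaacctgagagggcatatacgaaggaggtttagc
Slc27a2 distal: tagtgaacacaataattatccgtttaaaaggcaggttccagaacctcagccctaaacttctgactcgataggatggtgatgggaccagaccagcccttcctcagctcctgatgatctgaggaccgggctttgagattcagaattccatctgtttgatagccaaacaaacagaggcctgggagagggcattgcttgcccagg

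The promoters of *Cd36*, *Slc27a4* and *Acsl1* are shown next because the marks of these genes differed most. Each runs from 250 bases before to 50 bases after a start (RefSeq, GRCm38.p6). *Cd36* had strong H3K27ac, and *Slc27a4* had H3K4me3 and little H3K27ac. *Acsl1* had both marks in every mouse, counted over its 3 annotated start sites. The promoters are chr5:17835847-17836146 on the minus strand, chr2:29802384-29802683 on the plus strand and chr8:46470787-46471086 on the plus strand. The *Cd36* sequence belongs to the start sites furthest into the gene, and the *Acsl1* sequence to the outer start site. With summits counted at the outer start site only, *Acsl1* had H3K4me3 in every mouse but H3K27ac in only some mice. Capitals mark a DR1, the direct repeat of AGGTCA with 1 base between the copies, which receptors of the PPAR and RXR families bind. Up to 2 mismatches were allowed on either strand.
Cd36 promoter: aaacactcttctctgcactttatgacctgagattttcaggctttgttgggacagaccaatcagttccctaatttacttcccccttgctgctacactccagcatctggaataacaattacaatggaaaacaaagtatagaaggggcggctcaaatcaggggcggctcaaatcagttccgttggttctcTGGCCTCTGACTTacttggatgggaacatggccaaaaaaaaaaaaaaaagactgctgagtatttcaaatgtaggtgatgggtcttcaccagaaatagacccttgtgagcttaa
Slc27a4 promoter: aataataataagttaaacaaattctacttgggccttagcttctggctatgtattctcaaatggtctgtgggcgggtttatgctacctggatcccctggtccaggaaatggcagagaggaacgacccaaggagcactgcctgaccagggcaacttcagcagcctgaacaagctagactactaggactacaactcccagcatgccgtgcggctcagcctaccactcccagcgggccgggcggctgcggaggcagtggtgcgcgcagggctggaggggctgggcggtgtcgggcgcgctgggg
Acsl1 promoter: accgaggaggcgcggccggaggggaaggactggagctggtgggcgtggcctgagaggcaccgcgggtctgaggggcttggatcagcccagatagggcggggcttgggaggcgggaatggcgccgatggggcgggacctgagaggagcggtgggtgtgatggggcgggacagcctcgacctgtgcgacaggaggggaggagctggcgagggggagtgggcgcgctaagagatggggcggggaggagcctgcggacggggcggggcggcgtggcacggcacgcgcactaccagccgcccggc

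The DR1 of the *Cd36* promoter starts 63 bases before the start site, reads AAGTCAGAGGCCA on the strand opposite to the printed one and has 2 mismatches. A DR1 of this kind was present in 3.86% of 32851 RefSeq promoters of 300 bases. It was present in 4.07% of 5749 windows of 201 bases, centred in the same way, over distal H3K27ac regions found in at least 6 mice. Among the members it was in 1 of 10 promoters of 7 genes and in 0 of 13 distal windows. With windows centred on the median of the mice's summits, which need not be a summit in any mouse, it was in 1 of 13, at *Slc27a2*. These matches are descriptions of the letters only. The C/EBP motif TTGCNNAA was in 0 of the 10 promoters (10.8% of all promoters) and in 1 of the 13 distal windows, that of *Fabp5* (6.94% of all windows). The cAMP response element TGACGTCA was in none of either (1.79% and 0.191%). Sequences of the *Fabp4* and *Fabp5* promoters were not used here. Base composition separated the promoters shown above more than these motifs did. The *Cd36* promoter held 43.0% G and C and a ratio of observed to expected CpG of 0.216. The *Slc27a4* promoter held 58.7% and 0.548, and the outer *Acsl1* promoter, which is the one shown, 74.0% and 0.859. The *Acsl1* promoter at an inner start site, chr8:46490716-46491015, held 50% and 0.214, a CpG ratio close to that of *Cd36*. Medians over all promoters were 52.7% and 0.384.

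At the start sites, H3K4me3 was found at all 9 genes and H3K27ac at all 9 genes in at least some mice, while H3K27me3 was found in no window in any mouse. A start-site peak was first defined by a summit within 1000 bp of an annotated start site. By that rule 5 members had H3K4me3 in all 8 mice (*Fabp3*, *Fabp5*, *Slc27a4*, *Acsl1* and *Acsl5*) and 3 members had H3K27ac in all 8 mice (*Cd36*, *Acsl1* and *Acsl5*). Of the 55450 genes of the annotation, coding or not, 10699 had H3K4me3 and 874 had H3K27ac in all 8 mice by that rule. By the overlap of a peak with the same 1000 bp, the counts of members were 7 for H3K4me3 and 5 for H3K27ac. Counts over all genes by overlap are not given here. The difference comes from wide peaks whose summit lies further away, at *Cd36* and *Fabp4* for H3K4me3 and at *Fabp3* and *Fabp4* for H3K27ac, each of which had an overlapping peak in all 8 mice. At no member did the presence of either start-site mark follow temperature or diet completely, with a peak in every mouse on 1 side and in no mouse on the opposite side. Of all genes with a start-site peak in any mouse, such complete presence or absence was met by 0.0613% by temperature and 0.335% by diet for H3K4me3, and by 0.127% by temperature and 0.148% by diet for H3K27ac. The smallest p of Fisher's exact test at a member was 0.143, for H3K27ac at *Slc27a2* in 3 NCD mice and 0 HFD mice (two-sided), and mouse 7 with its short list is among the HFD mice.

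**Figure D1:**
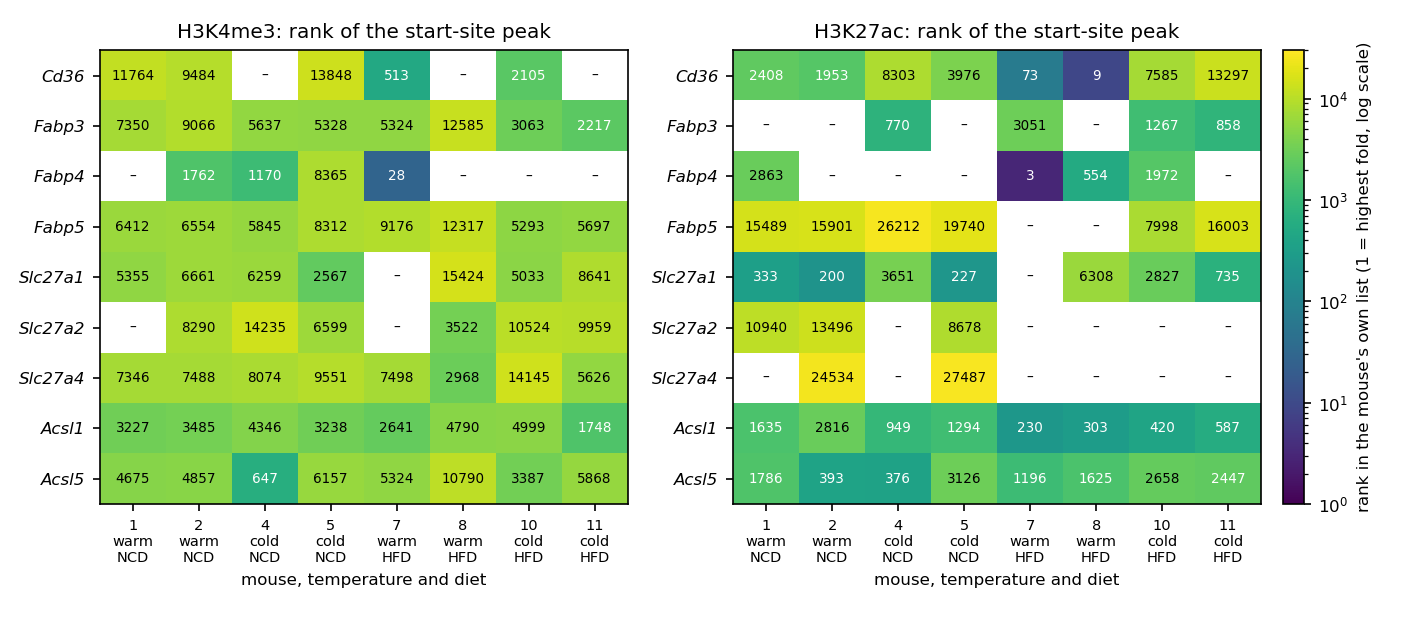
Rank of the strongest peak whose summit lay within 1000 bp of a start site, for H3K4me3 (left) and H3K27ac (right), with 1 row per gene and 1 column per mouse; colour is the rank on a log scale and a dash means no such peak. *Acsl1* and *Acsl5* have both marks in all 8 mice, *Slc27a4* has H3K4me3 in all 8 mice and H3K27ac in mice 2 and 5 only.

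*Cd36* (ENSMUSG00000002944.15, chr5:17781690-17888801, minus strand) had the best median H3K27ac rank in the window of the 9 genes, 47.5 against 133.5 at *Fabp4*. In mice 1, 4, 5, 7, 10 and 11, however, *Fabp4* ranked better than *Cd36*. The best rank of an H3K27ac peak in the *Cd36* window was 451 and 138 in warm NCD mice 1 and 2, 20 and 692 in cold NCD mice 4 and 5, 27 and 9 in warm HFD mice 7 and 8, and 68 and 26 in cold HFD mice 10 and 11. The fold enrichment given by the authors for those peaks ran from 12.7 in mouse 7 to 38.9 in mouse 4. All 4 HFD mice and mouse 4 ranked under 100, and the warm and cold groups overlapped fully. By its median log10 rank *Cd36* stood at position 22 of the 2585 protein-coding genes with an H3K27ac peak in their window in all 8 mice, the first 0.851%. Its window of 147112 bp is the longest of the 9, and a longer window can hold more peaks.

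The *Cd36* peaks lay in 3 places. In mice 1, 2, 4 and 7 the strongest H3K27ac peak was the intronic one whose sequence is shown, with summits 11590 to 11706 bp from the 5′ end of the gene. In mice 5 and 8 it was near the start sites around chr5:17849729, with summits 1237 and 174 bp from the nearest start site. Only the summit of mouse 8 thus met the start-site rule. In mice 10 and 11 the strongest peak was beyond the start sites near chr5:17835696. Between these last 2 groups of start sites H3K27ac formed very wide peaks in mice 4, 8, 10 and 11. The widest H3K27ac peak of the window measured 7014 and 8697 bp in warm NCD mice 1 and 2, 20935 and 3264 bp in cold NCD mice 4 and 5, 2077 and 21780 bp in warm HFD mice 7 and 8, and 18666 and 23351 bp in cold HFD mice 10 and 11. In mice 8, 10 and 11 this was the widest H3K27ac peak of the whole list, and in mouse 4 it was at position 2 by width. In mouse 5, where the same stretch was split into several peaks, it was at position 848. Distal H3K27ac at *Cd36* formed 25 regions, of which 4 were found in at least 6 mice and 2 in all 8. The region in all 8 mice that carries the printed sequence, chr5:17875142-17878713, had a median rank of 78 and ranged from 20 to 4277, and H3K4me1 overlapped it in mice 4, 8 and 11. The other region in all 8 mice, chr5:17827439-17850893, covered 23455 bp and had a median rank of 380.

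**Figure D2:**
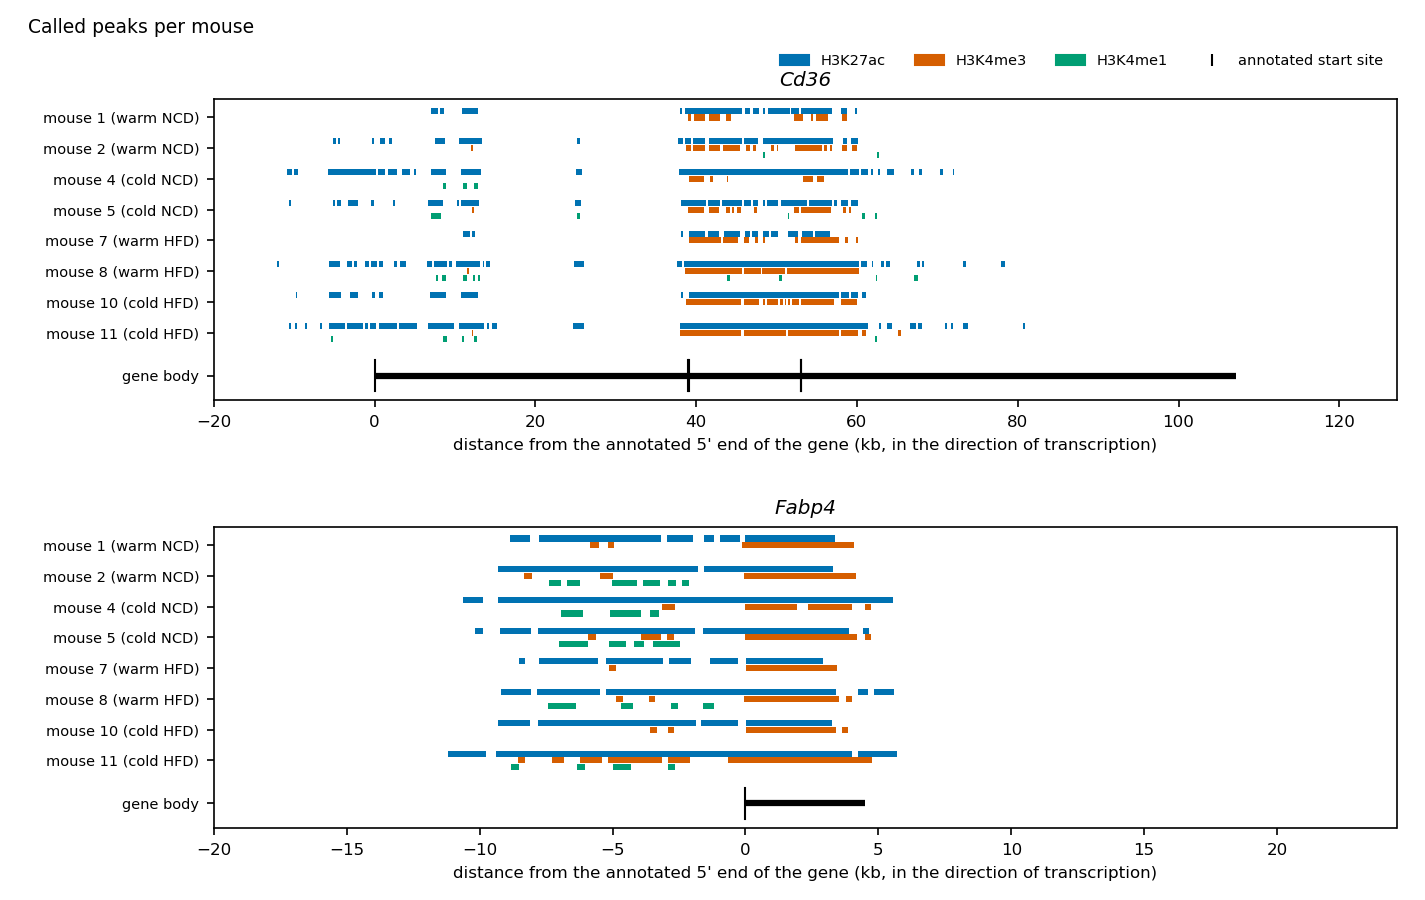
Called peaks of H3K27ac, H3K4me3 and H3K4me1 in the windows of *Cd36* and *Fabp4* in each mouse, by distance from the annotated 5′ end in kb; bars span each peak, the thick line is the gene body and ticks are start sites. H3K27ac has peaks between the inner start sites of *Cd36* and upstream of *Fabp4* in all 8 mice. At *Cd36* a single peak spans that stretch in mice 4, 8, 10 and 11, and narrower peaks lie in it in mice 1, 2, 5 and 7. H3K4me1 has no peak at either place in mice 1, 7 and 10, whose H3K4me1 lists are short.

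At the start sites of *Cd36*, the H3K27ac rank was 2408, 1953, 73 and 9 for warm mice 1, 2, 7 and 8. It was 8303, 3976, 7585 and 13297 for cold mice 4, 5, 10 and 11. The cold and warm mice did not overlap, with a mean log10 rank of 3.88 ± 0.22 in cold and 2.37 ± 1.17 in warm mice (SD, n = 4 each, exact permutation p = 0.0286, the smallest that 4 against 4 mice allow). Over the 874 genes with such a peak in all mice the Benjamini-Hochberg adjusted p was 0.929, and 2.52% of those genes did not overlap by temperature. This difference depended on where the summit fell. In cold mice 4, 10 and 11 a wide peak ran over the inner start sites with its summit over 1000 bp from each of them, and these peaks ranked 50, 68 and 26. The start-site rank of those mice came from smaller peaks. In mice 4 and 11 they stood at the outer start site, with summits 858 and -242 bp from the 5′ end (negative before it), and in mouse 10 a peak of 247 bp stood next to the wide one. Counted by overlap, the ranks were 889, 1531, 32 and 9 in the warm mice and 50, 692, 68 and 26 in the cold mice, and the groups overlapped. With summits within 2000 bp, or with ranks as a percentile of the list, they overlapped as well.

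H3K4me3 at *Cd36* was weak in rank by comparison. The best rank in the window was 9290, 7268, 13979 and 13848 for NCD mice 1, 2, 4 and 5. It was 111, 504, 1814 and 4099 for HFD mice 7, 8, 10 and 11. The diets did not overlap, with a mean log10 rank of 2.90 ± 0.68 on HFD and 4.03 ± 0.14 on NCD (SD, n = 4 each, exact permutation p = 0.0286, Benjamini-Hochberg adjusted p = 0.952 over 12700 genes). It was the only member of 9 that did not overlap by diet in this measure, against 2.96% of all genes, and by temperature 0 of 9 did so, against 2.93%. The H3K4me3 peaks in the window covered 7144, 12476, 4497 and 10050 bp in the NCD mice 1, 2, 4 and 5, and 12902, 21057, 17826 and 22427 bp in the HFD mice 7, 8, 10 and 11. The muscle markers *Acta1* and *Pygm* divided the mice in the same way, and their part in this difference was not tested. By rank of −log10 p the diets also did not overlap, and with every list shortened to 13517 peaks they could not be compared in all 8 mice.

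*Slc27a1*, *Slc27a2* and *Slc27a4* encode transport proteins with acyl-CoA synthetase activity, FATP1, FATP2 and FATP4, and the marks at the 3 genes differed. *Slc27a1* (ENSMUSG00000031808.7, chr8:71568882-71587302, plus strand) had H3K27ac at its start site in 7 mice, at rank 333 and 200 in warm NCD mice 1 and 2, 3651 and 227 in cold NCD mice 4 and 5, 6308 in warm HFD mouse 8, and 2827 and 735 in cold HFD mice 10 and 11. Mouse 7 had none. NCD mice 1, 2 and 5 ranked best, at 200 to 333, and the 3 HFD mice with a peak ranked from 735 to 6308. H3K4me3 was in the same 7 mice, at ranks 2567 to 15424. It was a member with little distal H3K27ac, with 4 regions and none in at least 6 mice. It was also 1 of only 2 members with H3K4me1 at a start site, in mice 2 and 5, the other being *Acsl1*.

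*Slc27a2* (ENSMUSG00000027359.16, chr2:126552407-126588243, plus strand) was the member whose strongest H3K27ac in the window divided the mice by diet. Its best H3K27ac rank was 10940, 6034, 3262 and 5299 for NCD mice 1, 2, 4 and 5. It was 1502, 2040, 1047 and 516 for HFD mice 7, 8, 10 and 11. No HFD mouse overlapped an NCD mouse, with a mean log10 rank of 3.05 ± 0.26 on HFD and 3.76 ± 0.22 on NCD (SD, n = 4 each, exact permutation p = 0.0286, Benjamini-Hochberg adjusted p = 0.524 over 2585 genes). Of the 6 members with an H3K27ac peak in the window of every mouse, it was the only one, against 5.45% of all genes. By temperature 0 of the 6 did not overlap, against 3.09%. With every list shortened to 3224 peaks the comparison could not be made in all 8 mice. The value of mouse 1 was a start-site peak, with its summit 486 bp from the nearest start site. Its best distal rank was 14834. As a part of the list, rank 1502 of 3224 in HFD mouse 7 stood further down than rank 3262 of 30544 in NCD mouse 4. By that measure the diets overlapped.

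The share of the distal H3K27ac bases of a list that fell in the *Slc27a2* window also separated the diets. It was 393, 283, 385 and 327 bases per 1000000 in NCD mice 1, 2, 4 and 5, and 716, 658, 789 and 680 bases per 1000000 in HFD mice 7, 8, 10 and 11. The means were 711 ± 57 on HFD and 347 ± 52 on NCD (SD, n = 4 each, exact permutation p = 0.0286, Benjamini-Hochberg adjusted p = 1 over 10694 genes). Of 9 members it was the only one that did not overlap by diet, against 2.67% of genes, and 0 did so by temperature, against 3.89%. Counted as distal peaks per 1000 instead of bases, the diets overlapped. In each of the 8 mice the region with the most of these bases was chr2:126552302-126558642, which was present in all 8 mice at a median rank of 2651 and whose sequence is shown. Distal peaks covered 1819, 2685, 2593 and 2673 bp of it in the NCD mice and 785, 6037, 2469 and 6107 bp in the HFD mice. The bases themselves did not separate the diets. In HFD mice 8 and 11 a wide peak ran up to or over the start site, and all 10555 and 15913 H3K27ac bp of the window counted. In NCD mice 1, 2 and 5 start-site peaks were separate and left out. There, 2058 of 2604, 4518 of 5386 and 5217 of 6051 bp counted. Mice 4 and 7 counted in full (7110 and 785 bp), and mouse 10 with 4982 of 5322 bp. The part of this in the separation was not tested. Mice 7 and 10 had shorter lists, and the separation of the share came after division by the total of the list, which was 1095621 bp in mouse 7 and 23405745 bp in mouse 11. At the start site of *Slc27a2*, H3K27ac had a summit in mice 1, 2 and 5 and an overlapping peak in mice 8 and 11 also. Another pair of its regions, each in 6 mice, lay within the neighbouring gene *Hdc*. The window of *Slc27a2* also includes *Gm26697*, and which gene these peaks belong to was not tested.

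**Figure D3:**
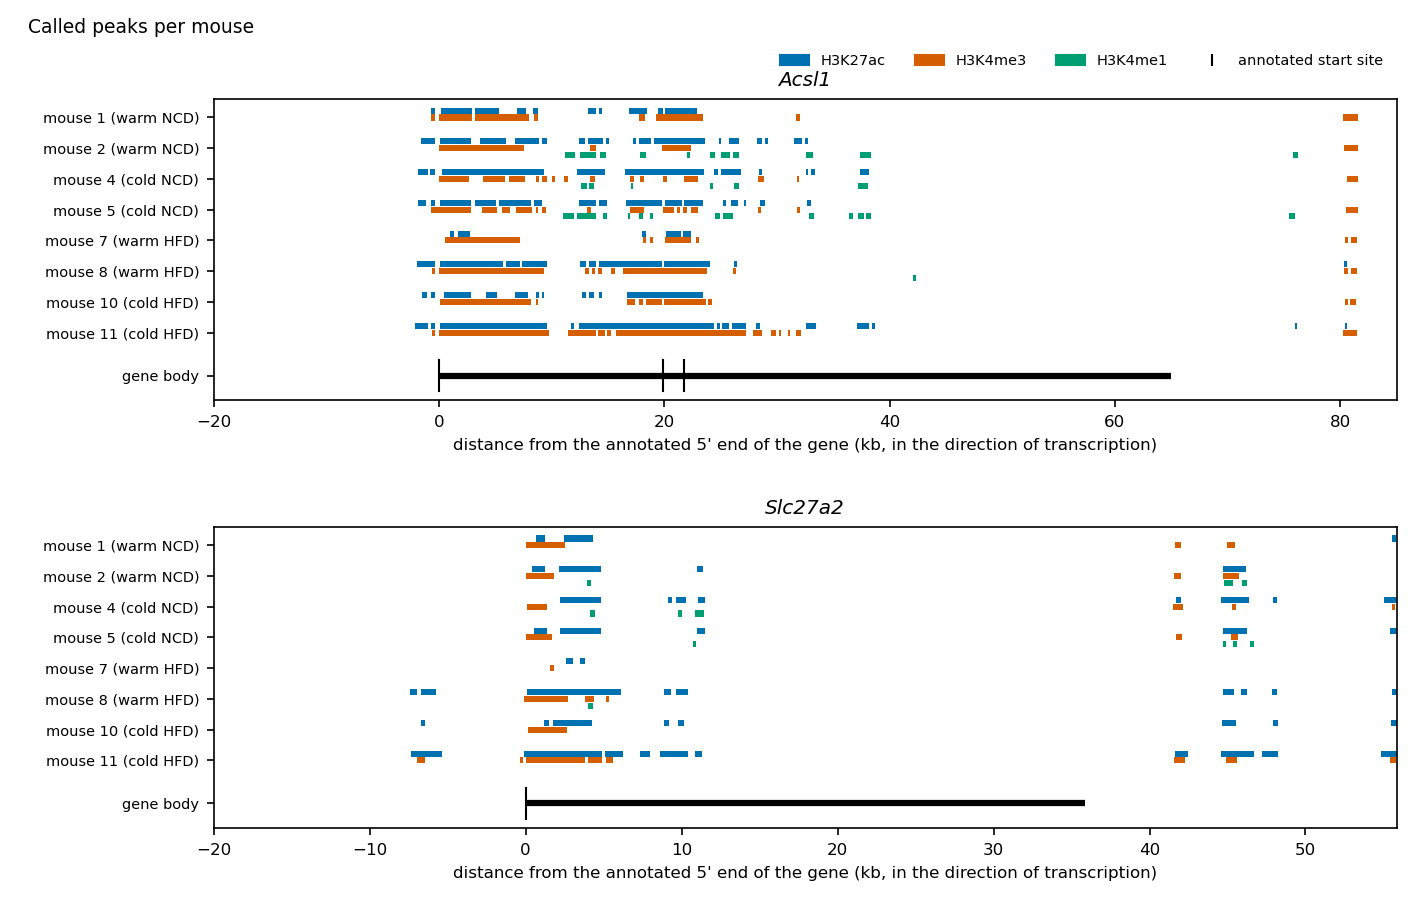
Called peaks of H3K27ac, H3K4me3 and H3K4me1 in the windows of *Acsl1* and *Slc27a2* in each mouse, by distance from the annotated 5′ end in kb; bars span each peak, the thick line is the gene body and ticks are start sites. *Acsl1* carries H3K27ac and H3K4me3 at its outer and inner start sites, though not every mouse has an H3K27ac summit at the outer one. *Slc27a2* carries H3K27ac within the first 7 kb of the gene in all 8 mice.

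*Slc27a4* (ENSMUSG00000059316.2, chr2:29802634-29817522, plus strand) had H3K4me3 without H3K27ac in most mice. Its start-site H3K4me3 rank was 7346 and 7488 in warm NCD mice 1 and 2, 8074 and 9551 in cold NCD mice 4 and 5, 7498 and 2968 in warm HFD mice 7 and 8, and 14145 and 5626 in cold HFD mice 10 and 11. Its start-site H3K27ac was called in mice 2 and 5 only, at ranks 24534 and 27487, near the end of lists of 28433 and 30495 peaks. The stronger peaks of its window stood at start sites of the neighbours *Urm1*, *Trub2* and *Coq4*. For H3K27ac those ranked 5278 to 18472 in 7 mice, and for H3K4me3 53 to 2328 in all 8. Leaving out peaks at the neighbours' start sites, H3K27ac remained in mice 2, 4 and 5 only.

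*Fabp4* (ENSMUSG00000062515.3, chr3:10204088-10208576, minus strand) encodes the main fatty acid binding protein of adipocytes, and came next to *Cd36* by the median H3K27ac rank in the window. Its best H3K27ac rank was 313 and 249 in warm NCD mice 1 and 2, 4 and 565 in cold NCD mice 4 and 5, 3 and 554 in warm HFD mice 7 and 8, and 18 and 14 in cold HFD mice 10 and 11. Both cold HFD mice ranked under 20 and both warm NCD mice above 200, and the other 2 conditions each held 1 mouse of either kind, so no grouping by temperature or diet separated them. Its position was 43 of 2585 genes, the first 1.66%. H3K27ac ran from the upstream side through the gene body, in peaks up to 14879 bp wide in mouse 4 and 13388 bp in mouse 11. The distal region chr3:10202862-10217948 was present in all 8 mice at a median rank of 133.5. Its strongest distal summit lay within 100 bp of chr3:10213589, upstream of the gene, in 3 mice and elsewhere in the region in the other mice. H3K4me1 overlapped this region in mice 2, 4, 5, 8 and 11, which are all 5 mice with long H3K4me1 lists. Its best H3K4me1 rank was 502, 1538, 8, 3115 and 20 in those mice.

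H3K4me3 at *Fabp4* lay over the gene body. Its best rank was 8195, 1762, 1170 and 8365 for NCD mice 1, 2, 4 and 5. It was 28, 253, 483 and 1405 for HFD mice 7, 8, 10 and 11. The HFD mice lay below all NCD mice except mouse 4, and the diets overlapped (mean log10 rank 2.42 ± 0.72 on HFD and 3.54 ± 0.45 on NCD, SD, n = 4 each, exact permutation p = 0.0571, Benjamini-Hochberg adjusted p = 0.952). By rank of −log10 p mouse 4 moved to 6017 and the diets did not overlap. As at *Cd36*, the 2 muscle markers divided the mice in the same way.

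*Fabp3* (ENSMUSG00000028773.8, chr4:130308595-130315463, plus strand) encodes the heart-type binding protein, which is also made in brown fat. Its best H3K27ac rank was 1571 and 1774 in warm NCD mice 1 and 2, 770 and 1499 in cold NCD mice 4 and 5, 904 and 1122 in warm HFD mice 7 and 8, and 249 and 858 in cold HFD mice 10 and 11. Both warm NCD mice were the weakest and cold HFD mouse 10 the strongest, and neither temperature nor diet separated the mice. An upstream region, chr4:130298410-130300667, was present in all 8 mice at a median rank of 2191, with a summit of every mouse within 100 bp of chr4:130299875. A region over the start, chr4:130305436-130313034, was present in 7 mice at a median rank of 1571. Start-site H3K4me3 ranked 7350, 9066, 5324 and 12585 in warm mice 1, 2, 7 and 8. In cold mice 4, 5, 10 and 11 it ranked 5637, 5328, 3063 and 2217. Mouse 7 alone fell among the cold mice, so the temperatures overlapped (exact permutation p = 0.0857, Benjamini-Hochberg adjusted p = 0.952). As a percentile of the list the temperatures did not overlap. In every mouse the summit of this H3K4me3 peak lay nearer to another gene's start site than to that of *Fabp3*, at 229 against 308 bp in mouse 1. Leaving out peaks at start sites of other genes, H3K4me3 remained in the *Fabp3* window in 6 mice, at ranks 9718 to 18686, and not in mice 10 and 11.

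*Fabp5* (ENSMUSG00000027533.10, chr3:10012548-10016607, plus strand) encodes the epidermal-type binding protein, which many cell types make. It had the weakest H3K27ac at its own start site among members that had it in 6 mice or more, at ranks 15489 and 15901 in warm NCD mice 1 and 2, 26212 and 19740 in cold NCD mice 4 and 5, and 7998 and 16003 in cold HFD mice 10 and 11. Mice 7 and 8 had none. Its strongest H3K27ac was instead an upstream region, chr3:9995218-9996509, in 7 mice at a median rank of 5050, with a summit of all 7 within 100 bp of chr3:9995884. H3K4me3 was called over that region in 7 mice and H3K4me1 in none. Start-site H3K4me3 of *Fabp5* was called in all 8 mice, at ranks 5293 to 12317.

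*Acsl1* (ENSMUSG00000018796.13, chr8:46471037-46536051, plus strand) encodes the main long-chain acyl-CoA synthetase of adipose tissue and had both start-site marks in every mouse. Start-site H3K27ac ranked 1635, 2816, 949 and 1294 for NCD mice 1, 2, 4 and 5. It ranked 230, 303, 420 and 587 for HFD mice 7, 8, 10 and 11. The diets did not overlap, with a mean log10 rank of 2.56 ± 0.18 on HFD and 3.19 ± 0.20 on NCD (SD, n = 4 each, exact permutation p = 0.0286, Benjamini-Hochberg adjusted p = 0.713 over 874 genes). It was the only one of the 3 members tested, against 4.00% of all genes. The strongest start-site peak was not at the same place. In the 4 HFD mice and in mouse 4 it was at the inner start sites, with summits 20318 to 20495 bp from the 5′ end, and in mice 1, 2 and 5 it was beside the 5′ end, with summits 551, 513 and 558 bp from it. Counted by overlap, mouse 1 moved to rank 434 and the diets overlapped, as they did with ranks as a percentile of the list or with summits within 2000 bp. Start-site H3K4me3 ranked from 1748 in mouse 11 to 4999 in mouse 10 and did not divide the mice by either factor.

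Distal H3K27ac at *Acsl1* formed 13 regions, 1 of them in at least 6 mice, the intronic chr8:46483327-46490853 at a median rank of 6699 in 7 mice. One region, chr8:46468870-46470066, was called as distal in all 4 cold mice and in no warm mouse, at ranks 7836, 11850, 8540 and 12163 (mice 4, 5, 10 and 11). It was 1 of 72 distal regions of the members, and 0.385% of the 36631 distal H3K27ac regions of the genome followed temperature in all 8 mice. The corresponding count by diet was 0 of 72, against 0.0983%. Warm mice 2 and 8 had a peak over the same bases, at ranks 2816 and 1844, whose summits lay 513 and 527 bp from the start site, so that these counted as start-site peaks. Warm mice 1 and 7 had no peak over these bases. The region was thus not absent from warm mice.

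*Acsl5* (ENSMUSG00000024981.6, chr19:55251938-55297720, plus strand) encodes a related synthetase. Start-site H3K27ac ranked 1786 and 393 in warm NCD mice 1 and 2, 376 and 3126 in cold NCD mice 4 and 5, 1196 and 1625 in warm HFD mice 7 and 8, and 2658 and 2447 in cold HFD mice 10 and 11. NCD mice held both the strongest and the weakest value, and on NCD mice of the same condition differed as much as mice of different ones. On HFD the warm and cold mice did not overlap. Over all mice the temperatures overlapped, and without mouse 4 they did not. Start-site H3K4me3 ranked 647 in mouse 4 and from 3387 to 10790 in the other mice. The basic annotation gives it 1 start site, chr19:55253369, which lies inside the 5′ end of the gene given above. A region over that 5′ end, chr19:55249112-55252855, had H3K27ac in all 8 mice at a median rank of 4860 and H3K4me1 in none. It counted as distal only against this 1 start site, and in 5 mice its strongest summit lay within 100 bp of chr19:55252038, beside the 5′ end. In 6 mice the strongest H3K4me3 of the window stood 63801 to 64226 bp from the 5′ end, at the start site of another gene.

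**Figure D4:**
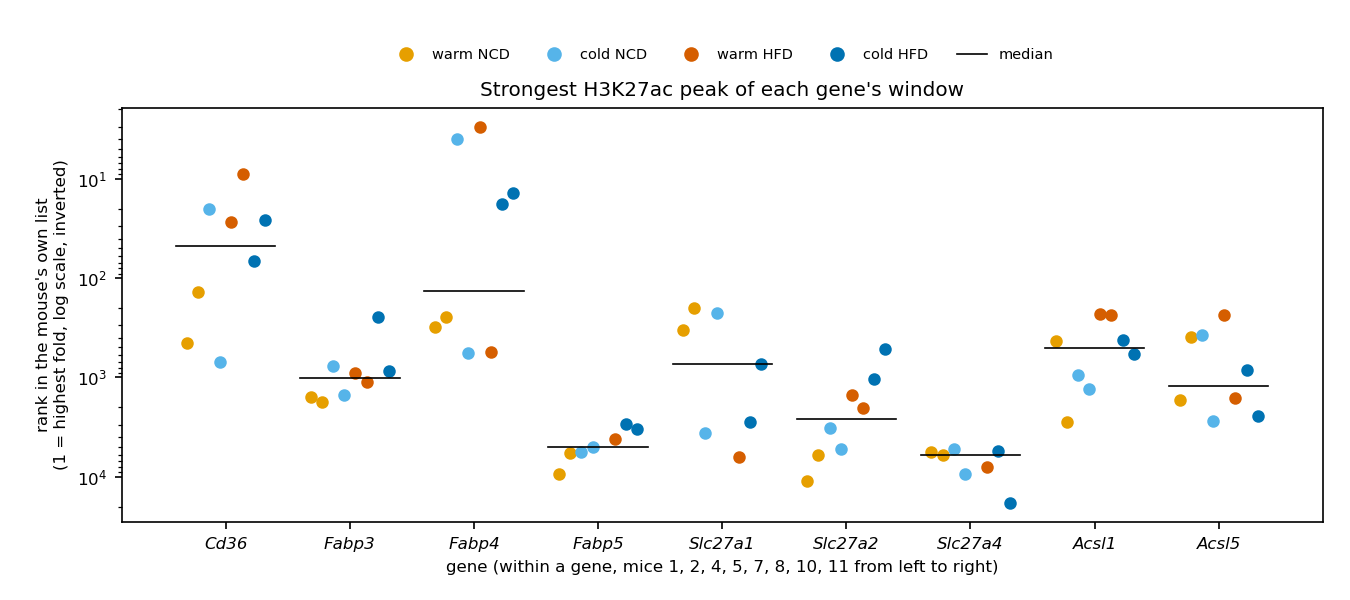
Rank of the strongest H3K27ac peak in the window of each gene, on an inverted log axis with 1 point per mouse coloured by condition and a line at the median. By their medians *Cd36* and *Fabp4* stand above the other genes, with ranks of 9 to 692 and 3 to 565, and the mice of 1 condition are often far apart.

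Across the 9 genes, start-site rank did not differ by temperature or diet beyond the spread of the mice for H3K4me3. None of the 5 members tested separated the temperatures, against 2.55% of 10699 genes, and none separated the diets, against 2.84%. The smallest exact permutation p was 0.0857 by temperature and 0.343 by diet, and no p was under 0.05. Of the 5 members, 4 had a lower mean log10 rank in cold mice, by a median difference of -0.13. For the strongest H3K27ac of the window, 5 of 6 members had a lower mean log10 rank on HFD, by a median of -0.58, and 3 of 6 had a lower one in cold mice. Mouse 7, whose ranks are bounded at 3224, is among both the HFD and the warm mice. No adjusted p was under 0.05 for any member. The smallest exact permutation p that 4 against 4 mice allow is 0.0286. A gene therefore cannot pass the adjustment over all genes unless most genes do, so this outcome says nothing about the members. The interaction of temperature and diet was computed for 8 start-site ranks, and its smallest exact permutation p was 0.0857.

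The 9 windows together span 662475 bp, which is 0.243 of every 1000 bases of the 21 chromosomes. They held 1.97 to 10.2 of every 1000 H3K27ac peaks, with the highest value in mouse 7 and the lowest in mouse 11, the shortest and the longest list. For H3K4me3 the values were 1.82 to 2.37. Distal H3K27ac formed 72 regions, of which 13 (*Cd36* 4, *Slc27a2* 3, *Fabp3* 2 and *Fabp4*, *Fabp5*, *Acsl1* and *Acsl5* 1 each) were in at least 6 mice, 6 were in all 8 and 21 were in 1 mouse. Over the genome, 15.7% of distal H3K27ac regions were in at least 6 mice, 3.20% in all 8 and 41.2% in 1. H3K4me1 overlapped 22 of the 72 regions in a same mouse, and 10 of the 13. The corresponding share over the genome is not given here. By the median share of distal H3K27ac bases, *Cd36* stood at position 13 of 10694 protein-coding genes, *Fabp4* at 171, *Acsl1* at 282, *Fabp3* at 355, *Slc27a2* at 428, *Acsl5* at 845, *Fabp5* at 3161, *Slc27a1* at 6197 and *Slc27a4* at 6829. The median share of *Slc27a4* was 0, so its position is a tie for last with all genes of median 0. Shares were not corrected for window length, which ran from 44060 to 147112 bp.

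**Figure D5:**
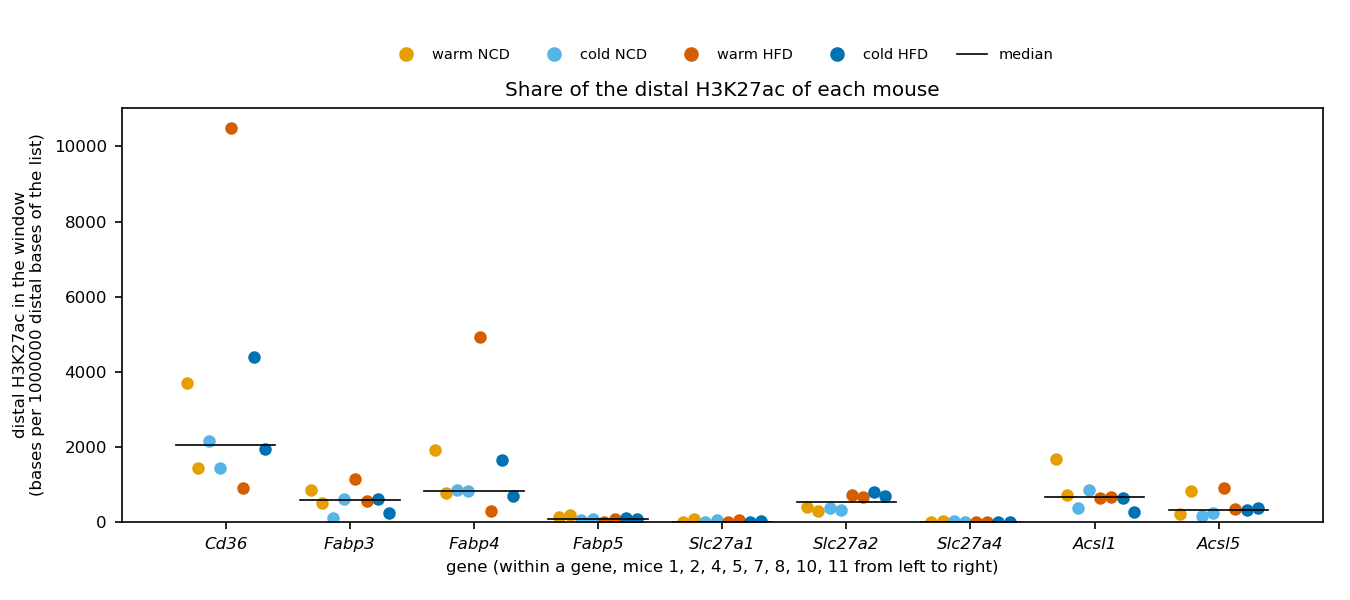
Bases of distal H3K27ac in the window of each gene per 1000000 distal H3K27ac bases of the list, with 1 point per mouse coloured by condition and a line at the median. *Cd36* and *Fabp4* reach their highest values in mouse 7, which has the shortest list, and *Slc27a2* is the only gene whose HFD mice (658 to 789) all lie above its NCD mice (283 to 393).

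Among 25 other genes of fatty acid uptake, binding and activation, 11 had an H3K4me3 peak overlapping a start site in all 8 mice and 10 had none in any mouse. H3K27ac overlapped a start site in all 8 mice at 6 of them. These were *Lpl* and *Gpihbp1*, which release fatty acids from lipoproteins at the vessel wall and hold the lipase there, *Angptl4*, an inhibitor of that lipase, *Cav1*, a protein of membrane caveolae, and *Dbi* and *Scp2*, which bind acyl-CoA and sterols. H3K27ac was found in no mouse at 13 of the 25. Without either mark in any mouse were the liver and gut forms *Slc27a5*, *Fabp1*, *Fabp2* and *Fabp6*, the brain form *Fabp7*, and *Fabp9*, *Pmp2*, *Acsbg1* and *Acsbg2*. *Fabp9* and *Fabp4* are neighbours, and the window of *Fabp4* includes the start of *Fabp9*. Of the 25, 10 could be tested for H3K4me3 rank and 4 for H3K27ac rank, and 0 separated the mice by temperature or diet. H3K27me3 overlapped a start site of none of the 9 members or the 25 others. The H3K27me3 lists held 20 to 6428 peaks, so that absence of this mark is limited by the length of the lists.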

How the data were processed

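Histone marks were measured by ChIP-seq in 8 mice. Of 40 samples, 32 had a peak list and the 8 inputs had none. The study's methods name cutadapt for trimming, bowtie2 for alignment (GRCm38) and macs2 for peaks, called per library against its input. Versions and calling thresholds are not stated in the sources at hand. The deposited lists give the authors' fold enrichment, a ratio of ChIP to local background. They also give −log10 p and −log10 q values computed by the authors within each library. The smallest −log10 q was 1.30.

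Peaks were ranked by fold within each list. Start-site peaks had a summit within 1000 bp of a GENCODE M21 start site. Distal peaks had a summit further from any gene's start, so a wide one can run over a start site. Regions were unions of peaks overlapping by 1 bp. Sequence windows were centred on the called summit that most mice shared within 100 bp, chosen after the data were seen in place of the planned median summit, which fell between summits in some regions. Ranks (log10) and distal shares were compared between 4 and 4 mice by two-sided exact permutation over 70 assignments, and presence by Fisher's exact test, for every gene, with Benjamini-Hochberg adjustment over all genes tested. The threshold was 0.05. Groups not overlapping were also counted. Python 3.11.15, numpy 2.4.6, pandas 2.3.3 and scipy 1.17.1 were used, and the functions were tested on simulated lists. All 9 members were named whatever their values. Other genes of the pathway were named where all or no mice carried a mark. The members and lists were chosen with earlier results of these data known. The best rank in the window was added after the data were seen. The labels call the depot inguinal brown adipose tissue, and the study's methods interscapular.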

Additional observations from a re-analysis of the deposited data

Results flagged for a closer look

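In groups of 4 or 8 mice, 70 groups of ranks at the 9 genes were examined for a mouse far from the others (the gap to the nearest mouse over the whole range, on the log10 scale). Of these, 8 stood out, where chance alone gives about 1 in 20, or 3.5. The groups share mice and peaks, so the 8 are not independent and no excess over chance can be read from these counts. For start-site H3K4me3 of *Slc27a4*, warm mouse 8 ranked 2968, where mice 1, 2 and 7 ranked 7346 to 7498 (gap 0.978 of the range). For start-site H3K4me3 of *Acsl5*, mouse 4 ranked 647 against 3387 to 10790 in the other 7 mice (0.588) and against 4675 to 6157 in the other NCD mice (0.878). In the same measure warm mouse 8 ranked 10790 against 4675 to 5324 in the other warm mice (0.845). For start-site H3K27ac of *Acsl5*, cold mouse 4 ranked 376 against 2447 to 3126 in the other cold mice (0.884), while NCD mouse 2 ranked 393. For the best H3K27ac rank of the *Fabp3* window, mouse 10 ranked 249 against 770 to 1774 in the other 7 mice (0.575). For that of *Fabp4*, warm mouse 7 ranked 3 against 249 to 554 in the other warm mice (0.847), and NCD mouse 4 ranked 4 against 249 to 565 in the other NCD mice (0.834).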

How the results depend on the processing

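Results were counts over the 9 members, recomputed under 151 alternatives, of which 116 stayed within 1.5 times the value reported. For start-site peaks in all 8 mice, H3K4me3 went from 5 members to 1 with summits within 500 bp and to 9 with summits within 2000 bp. H3K27ac went from 3 to 1 with summits within 500 bp, to 5 by overlap of a peak with the start-site window, and to 0 at the 5′ end of the gene only. The rest of the alternatives for presence, and all for the 13 distal regions in at least 6 mice (9 to 19), stayed within 1.5 times. For start-site ranks that did not overlap by temperature, H3K4me3 went from 0 to 1 (*Fabp3*) with a percentile of the list, and H3K27ac went from 1 (*Cd36*) to 0 with a percentile, with lists shortened to 3224 peaks, or with summits within 2000 bp. By diet, H3K4me3 went from 0 to 1 (*Cd36*) with summits within 2000 bp, and H3K27ac went from 1 (*Acsl1*) to 0 with a percentile or with summits within 2000 bp. The distal H3K27ac share by diet went from 1 (*Slc27a2*) to 0 when peaks were counted per 1000 distal peaks. The best rank in the window, a measure and alternatives chosen after seeing the data, went by diet for H3K4me3 from 1 (*Cd36*) to 2 by −log10 p and to 0 with shortened lists, and for H3K27ac from 1 (*Slc27a2*) to 0 with shortened lists. Where a setting moved a count, the cause was not tested, except that shortened lists leave fewer genes with a peak in every mouse.

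Leaving out each mouse in turn, the counts not overlapping by temperature ran from 0 to 1 for H3K4me3 start-site rank (1 without mouse 5, 7 or 11), from 1 to 2 for H3K27ac start-site rank (2 without mouse 4), from 0 to 1 for distal share (1 without mouse 5) and from 0 to 1 for best rank in the window (H3K4me3 without mouse 5 or 7, H3K27ac without mouse 5). By diet they ran from 0 to 1 for H3K4me3 start-site rank (1 without mouse 8), from 1 to 2 for distal share (2 without mouse 2 or 4), from 1 to 3 for best H3K4me3 rank (2 or 3 without mouse 4, 8, 10 or 11) and from 1 to 3 for best H3K27ac rank (2 or 3 without mouse 1, 4, 7 or 11). No paired analysis was possible because mice of different conditions carry different numbers, and a number marks only the same mouse across marks. The lists give no read depth. No member had an adjusted p under 0.05, which 4 against 4 mice cannot give unless most genes reach the smallest possible p.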
